A study of Mus musculus with 18 samples.

Results

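H3K9me3 peaks centred on ERVL and MaLR elements made up 38723 of the 375410 peaks in 4 deposited lists from cultured CD8 T cells. A peak was counted when its detailed annotation, which names the repeat under the peak centre with its class and family, gave the class LTR and either the family MaLR or a family name starting with ERVL. The annotation alone chose the peaks, and no score or difference between samples entered the choice. WT replicate 1 held 7418 such peaks, WT replicate 2 held 2233, KO replicate 1 held 11656 and KO replicate 2 held 17416. They carried 180 element names, of which 104 occurred in all 4 lists and 44 had fewer than 10 peaks over the 4 lists.

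ERVL elements are class III endogenous retroviruses, distantly related to foamy viruses. The mouse copy MERVL, an internal part (MERVL-int) flanked by the long terminal repeat (LTR) MT2_Mm, is transcribed in the early embryo at the two-cell stage, where its LTR serves as a promoter for chimeric transcripts. MaLR elements (mammalian apparent LTR retrotransposons) are non-autonomous relatives that encode no replication machinery and occur mostly as solitary LTRs. MT and ORR1 are the rodent MaLR lineages, with MTA and ORR1A the younger and MTE and ORR1E among the older subfamilies, while MLT1 is older and shared across mammals. H3K9me3 is a mark of silenced chromatin placed by SETDB1 and the SUV39H enzymes. G9a, the product of Ehmt2, mainly places the mono- and dimethyl forms of the same lysine, and in mouse embryonic stem cells its loss is known to derepress MERVL.

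The study compared mice with and without G9a on the C57BL/6 background. For ChIP-seq, Ehmt2+/+ (WT) and Ehmt2-/- (KO) CD8 T cells from spleen were kept in culture with antibodies against CD3 and CD28, and native chromatin cut with micrococcal nuclease was precipitated with an antibody to H3K9me3, with 2 libraries per genotype. For RNA-seq, T cells of spleen and lymph nodes were taken after 4 weeks of expansion in a lymphopenic setting: 4 libraries of G9a KO cells that had gained CD4 (CD4+CD8+, KO DP), 2 of G9a KO cells that had not (CD4-CD8+, KO SP) and 4 of G9a WT CD4-CD8+ cells (WT SP). The labels name neither the Cre that deletes Ehmt2 nor the exons removed. They do not say that the libraries of a group are from different mice, so every p-value measures the spread between libraries, which may be technical. The ChIP cells and the RNA cells thus differ in state, and no RNA was measured in the cultured cells.

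The 4 peak lists differed in ways that bear on every value given here. They held 85960 peaks (WT replicate 1), 23304 (WT replicate 2), 111149 (KO replicate 1) and 154997 (KO replicate 2), so counts of peaks follow list length and only shares, ranks and overlaps are compared. The top score was 516902 and 2.39e+06 in the WT lists, both at major satellite repeats, against 1131.6 and 4067.1 in the KO lists, neither at a satellite. The X chromosome held 3.88% of the peaks in WT replicate 1 and between 0.299% and 0.837% in the other lists. Length and genotype go together (both KO lists are longer than both WT lists) and cannot be told apart in full. Values from lists cut to equal length are given where they bear on a result. In RNA, the FPKM of KO DP replicates 3 and 4 summed to 292872 and 183632 against 441903 to 504013 in the other 8 libraries, and 19520 and 20019 symbols lay above 0 in these 2 libraries against 14132 to 16063. T cell genes were high in every RNA library (Cd8a between 70.0 and 340.1 FPKM), while Cd4 lay between 0.144 and 0.495 FPKM in SP libraries. Erythroid Hba-a1 and myeloid C1qb were higher in replicates 1 and 2 than in replicates 3 and 4 of both KO DP and WT SP (Hba-a1 361.5 to 855.5 against 0.207 to 11.6 FPKM), and the part of such cells in the RNA results was not tested.

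Sequence is shown for 2 gene starts that lie near member peaks, one rich and one ordinary in CpG, since no sequence of the peaks' own mm9 build was at hand. Given are the 250 bases before the RefSeq start in GRCm38.p6, plus strand, with each CpG in capitals. The ERVL and MaLR peaks at these genes lie outside the windows, centred from -1768 to -1936 bp at Vps54 and from -7040 to -7481 bp at Ctla4 (mm9, relative to the start, as the files give it). The CpG count is a description of the letters in the window.
Ctla4, chr1:60908775-60909024: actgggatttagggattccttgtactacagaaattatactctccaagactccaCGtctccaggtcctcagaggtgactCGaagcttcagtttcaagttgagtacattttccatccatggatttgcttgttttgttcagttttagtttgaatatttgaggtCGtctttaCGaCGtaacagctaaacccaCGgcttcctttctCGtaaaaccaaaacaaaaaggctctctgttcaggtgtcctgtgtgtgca
Vps54, chr11:21238782-21239031: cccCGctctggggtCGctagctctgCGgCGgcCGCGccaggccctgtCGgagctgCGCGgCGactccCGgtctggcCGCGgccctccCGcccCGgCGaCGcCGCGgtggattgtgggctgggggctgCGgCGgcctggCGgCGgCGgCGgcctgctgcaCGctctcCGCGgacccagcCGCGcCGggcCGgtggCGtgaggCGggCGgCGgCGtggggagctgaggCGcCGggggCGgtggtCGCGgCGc
The Ctla4 window held 7 CpG (both strands read alike), and 46.3% of the 32851 RefSeq promoter windows held at least as many. The Vps54 window held 43 CpG with a GC content of 83.2%, and 0.712% of windows held at least as many.

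The share of peaks on ERVL and MaLR elements was higher in both KO lists than in both WT lists. It was 8.63% of peaks in WT replicate 1 (exact binomial 95% interval 8.44 to 8.82%), 9.58% in WT replicate 2 (9.21 to 9.97%), 10.5% in KO replicate 1 (10.3 to 10.7%) and 11.2% in KO replicate 2 (11.1 to 11.4%). These intervals cover counting error only. The means differed by 1.76 percentage points, with an exact two-sided permutation p of 0.333, the smallest that 2 against 2 libraries allow, so the design cannot pass a threshold of 0.05. With all lists cut to the top 23304 peaks by score the shares were 10.3%, 9.58%, 12.4% and 11.7% in the same order. Among peaks on any repeat the shares were 15.4%, 16.3%, 20.8% and 22.6%. Among the peaks with scores above the median of each list the difference was 0.95 points and the genotypes overlapped (exact permutation p = 1).

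Shares were higher in KO for ERVL and for the MT and MLT1 lineages of MaLR, while ORR1, the most frequent lineage, overlapped between genotypes. ERVL family peaks took 1.04% and 0.790% of the WT lists and 1.69% and 1.63% of the KO lists. MaLR peaks took 7.58% and 8.79% of the WT lists and 8.80% and 9.61% of the KO lists, so KO replicate 1 and WT replicate 2 were nearly the same. Other LTR families lay the other way: ERVK, the family of the intracisternal A particles, took 9.70% and 9.34% in WT against 6.66% and 6.26% in KO, and ERV1 took 2.76% and 2.72% against 1.62% and 1.31%. L1 elements, at 21.9% and 13.1% in WT and 20.1% and 19.9% in KO, overlapped between genotypes. Single L1 names went both ways. Lx9 took 0.334% and 0.343% in WT against 1.11% and 1.09% in KO, and Lx8 0.691% and 0.622% against 1.55% and 1.59%. Lx2A1 lay the other way, at 0.197% and 0.180% against 0.0891% and 0.0936%. Of the 302 repeat names tested below, 97 were higher in both KO lists and 86 in both WT lists. A higher share in KO was thus not particular to ERVL and MaLR.

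**Figure D1:**
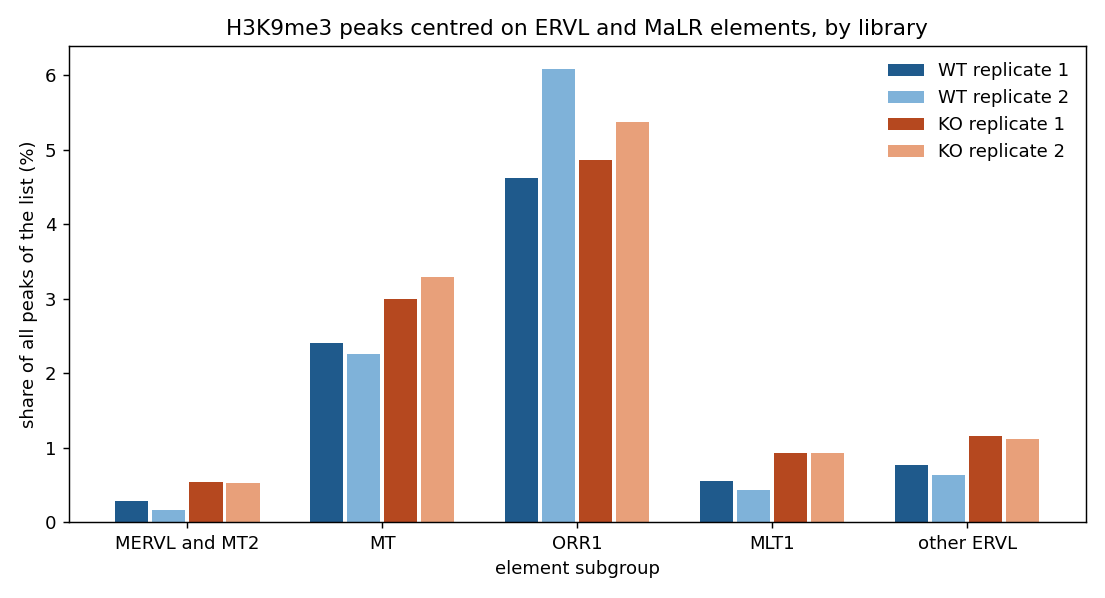
Share of all peaks of each list (bars, in percent, from 0) for the 5 element subgroups in the 4 libraries. MERVL and MT2, MT, MLT1 and other ERVL stand higher in both KO lists than in both WT lists, while the ORR1 bars overlap, from 4.61% to 6.09%.

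By subgroup, MERVL and MT2 elements had the largest ratio. They took 0.290% and 0.163% of the WT peaks (249 and 38 peaks) and 0.541% and 0.528% of the KO peaks (601 and 819 peaks), a ratio of mean shares of 2.36. MLT1 elements took 0.554% and 0.433% in WT and 0.927% and 0.933% in KO, a ratio of 1.88. All remaining names, among them RMER15, MLT2 and ERVL-E, are called other ERVL here, although a few of their peaks carry the family MaLR. They took 0.762% and 0.635% in WT and 1.16% and 1.12% in KO, a ratio of 1.63. MT elements took 2.41% and 2.26% in WT and 3.0% and 3.29% in KO, a ratio of 1.35. In these 4 subgroups both KO libraries stood above both WT libraries. With lists of equal length the MERVL and MT2 shares were 0.189% and 0.163% in WT and 0.429% and 0.489% in KO, so the order was the same. ORR1 elements took 4.61% and 6.09% in WT and 4.86% and 5.37% in KO, so the genotypes overlapped, with a ratio of 0.955. Its direction depends on the setting: it turned to KO higher with equal-length lists, among repeat peaks and without WT replicate 2 or KO replicate 1.

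By element name, no single share passed the test. Names of every repeat class with a mean of at least 20 peaks over the 4 lists were fitted together with limma on log2 shares, 302 names in all, of which 60 were ERVL or MaLR names; the other 120 of the 180 had too few peaks. At an adjusted p under 0.05, 0 of the 302 were called in either direction (0%), and 0 of the 60. At an unadjusted p under 0.05 there were 71 of 302 (23.5%) and 13 of the 60 (21.7%), a share near that of all names. All 13 had a higher share in KO, whereas of the 71 there were 26 higher and 45 lower. Both KO shares lay above both WT shares for 35 of the 60 names, against 32.1% of all names tested, and the reverse held for 7 of the 60, against 28.5%. The median log2 difference was 0.48 over the 60 names and 0.07 over all 302. The calls rest on few libraries: without WT replicate 1 the same fit called 158 of 304 names (26 ERVL or MaLR names higher in KO and 6 lower), and without WT replicate 2 it called 137 of 335 (16 higher and 1 lower), each with a lone WT library that is assumed to vary like the others. Without KO replicate 1 it called 1 of 300 names and without KO replicate 2 it called 0 of 277.

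Most MERVL and MT2 names lay on the same side. Of the 6 tested, 5 had non-overlapping genotypes with KO higher and the same number had an unadjusted p under 0.05. MERVL_2A-int, an internal region, had shares of 0.0419% and 0.0215% in WT and 0.102% and 0.103% in KO, a log2 difference of 1.70 ± 0.40 (SE) with an adjusted p of 0.0779, the smallest among the 60 names. MT2B, an LTR of older MERVL relatives, had 44 and 9 peaks in WT and 114 and 144 in KO, shares of 0.0512%, 0.0386%, 0.103% and 0.0929%, and a log2 difference of 1.09 ± 0.34 (adjusted p = 0.151). The 2 parts of MERVL itself carried few peaks. MERVL-int had 22 and 1 peaks in WT and 26 and 48 in KO, with overlapping shares and a log2 difference of 1.07 ± 0.86 (adjusted p = 0.435). MT2_Mm had 4 and 0 peaks in WT and 12 and 4 in KO, too few for the test.

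**Figure D2:**
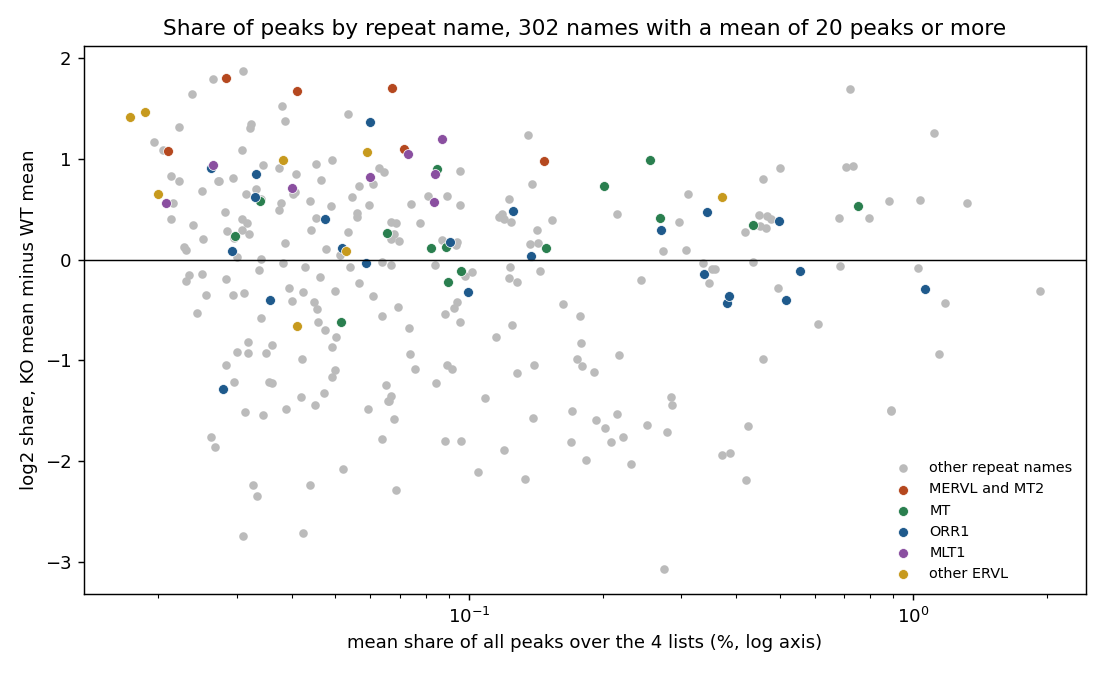
Each point is 1 of the 302 repeat names tested, placed by its mean share of peaks (percent, log axis) and its log2 difference in share, KO minus WT. The 6 MERVL and MT2 names and the 8 MLT1 names all lie above 0, while MT names, ORR1 names and the other repeat names lie on both sides.

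All 8 MLT1 names tested had both KO shares above both WT shares, with log2 differences from 0.56 to 1.20. MLT1A0 had 0.0570% and 0.0472% in WT and 0.127% and 0.117% in KO, a log2 difference of 1.20 ± 0.33 (adjusted p = 0.117). Among 15 MT names, 8 were higher in both KO lists and 2 in both WT lists, with a median of 0.26. The 2 were MTA_Mm and its internal part MTA_Mm-int, of the youngest MT subfamily; MTA_Mm had 88 and 21 peaks in WT and 92 and 130 in KO, shares of 0.102%, 0.0901%, 0.0828% and 0.0839%, and a log2 difference of -0.22 ± 0.33 (adjusted p = 0.682). Among 23 ORR1 names, 8 were higher in both KO lists, 5 were higher in both WT lists and 10 overlapped, with a median of 0.09. Of 8 other ERVL names, 6 were higher in both KO lists, 0 in both WT lists and 2 overlapped.

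The 10 most frequent names held 51.1% of the peaks, and 7 of them were ORR1. ORR1D1 led with 836, 322, 1079 and 1435 peaks (WT replicates 1 and 2, then KO replicates 1 and 2), shares of 0.973%, 1.38%, 0.971% and 0.926%. Both WT shares were higher, WT replicate 1 by a small margin (log2 difference -0.29 ± 0.27, adjusted p = 0.497). MTD followed with 588, 127, 940 and 1436 peaks, shares of 0.684%, 0.545%, 0.846% and 0.926%, and both KO lists higher (0.53 ± 0.27, adjusted p = 0.280). ORR1E, ORR1C2 and ORR1B1 came next and overlapped between genotypes. MTC and RMER15, the latter an ERVL LTR, were higher in both KO lists, with RMER15 at 0.337%, 0.249%, 0.451% and 0.446%. ORR1C1 and ORR1D2 were higher in both WT lists, ORR1D2 at 0.372%, 0.506%, 0.317% and 0.328%. ORR1A2, of a young ORR1 subfamily, had 226, 70, 337 and 785 peaks and shares of 0.263%, 0.300%, 0.303% and 0.506%, so KO replicate 2 stood well above the other 3 lists.

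Peaks on these elements ranked above the middle of their lists. The score is the authors' value per peak and serves here only to rank peaks within 1 list, as a percentile from 0 to 100. The median percentile of ERVL and MaLR peaks was 57.5 in WT replicate 1, 65.5 in WT replicate 2, 56.7 in KO replicate 1 and 54.3 in KO replicate 2. ORR1 peaks ranked highest in each list, with medians of 61.8, 69.8, 63.9 and 57.6. MERVL and MT2 peaks had 38.1, 56.5, 46.6 and 50.5, and MLT1 peaks 49.3, 43.6, 46.6 and 50.5. By name, ORR1C1 (66.6, 73.2, 66.8 and 63.2) and ORR1D1 (66.6, 67.7, 69.3 and 63.2) stood high and MTD (49.3, 43.6, 52.0 and 45.9) near the middle. MERVL-int had 42.3, 20.3, 43.4 and 43.3, the second value being that of a single peak. ERV1 peaks had medians of 68.1, 69.8, 66.8 and 63.2, above ERVL and MaLR in all lists, and L1 peaks 42.3, 32.3, 46.6 and 45.9, below them. ERVK peaks had 57.5, 60.1, 56.7 and 54.3, level with ERVL and MaLR except in WT replicate 2, where they were lower. B2 peaks had 61.8, 60.1, 66.8 and 60.5, higher except in WT replicate 2. A rank above the middle was thus not particular to ERVL and MaLR.

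**Figure D3:**
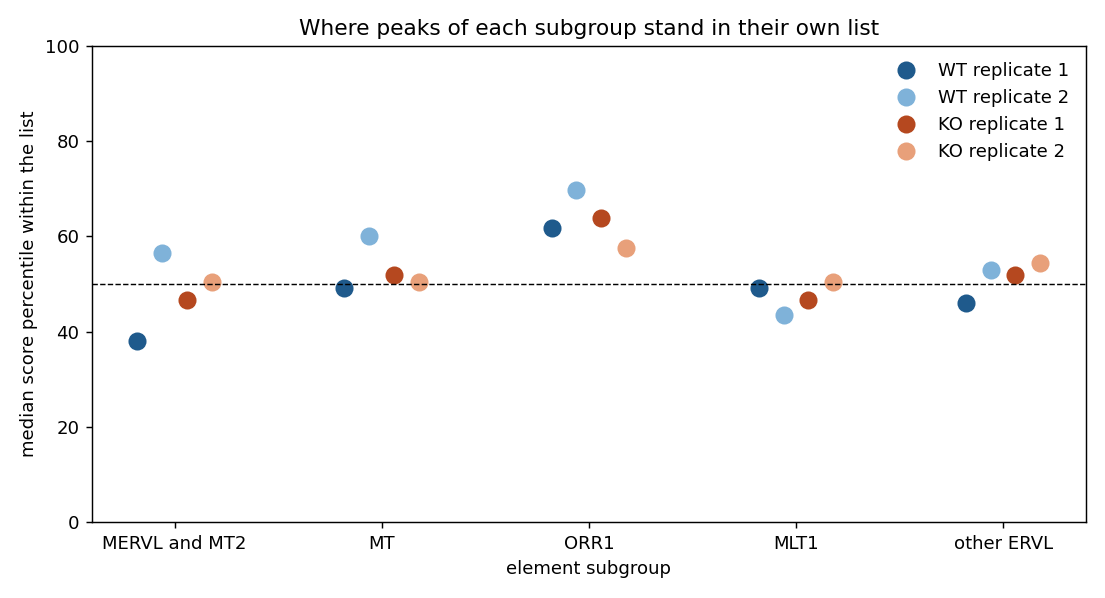
Median percentile of the peak score within its own list (vertical axis, 0 to 100, dashed line at 50) for the 5 subgroups in the 4 libraries. ORR1 lies above 50 in all 4 lists, from 57.6 to 69.8, while the other subgroups lie between 38.1 and 60.1.

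The peaks were narrow, and many had the same width. Between 44.6% and 51.5% of ERVL and MaLR peaks in a list were exactly 500 bp wide, and the medians were 634, 626, 500 and 631 bp, against 631, 500, 500 and 628 bp for all peaks. With lists cut to equal length the medians were 1107, 626, 1048 and 1483.5 bp, against 1252, 500, 1206 and 1670 bp for all peaks. The chosen peaks were then narrower than all peaks except in WT replicate 2. The widest chosen peaks of the full lists reached 12620, 4188, 23350 and 15984 bp. Most lay outside genes: 70.2%, 67.0%, 74.9% and 74.8% were intergenic and the rest intronic, as the peak centre is what the file annotates. Median distances to the nearest start were 62.6, 36.1, 113 and 105 kb, shorter in each list than the 103, 59.6, 146 and 148 kb of all peaks. Within 1 kb of a start there were 9, 0, 3 and 10 such peaks, against 1376, 426, 642 and 889 of all peaks. Every chosen peak was annotated as intergenic or intronic, while the full lists held other annotations too. The count within 1 kb thus depends on the annotation that chose the peaks, and does not show that these elements avoid starts. Within 10 kb lay 13.5%, 19.5%, 9.09% and 9.22% of the chosen peaks, more than the 10.997%, 16.4%, 7.81% and 7.51% of all peaks. Internal parts, named with the ending int, made up 11.6%, 10.9%, 14.4% and 12.7% of the peaks, and the remainder were LTRs. The part named with that ending ranked below the LTRs for MERVL and MT2 in 3 lists (medians of 31.0, 20.3 and 40.1 against 42.3, 65.0 and 46.6) and level with them in KO replicate 2. The value of 20.3, in WT replicate 2, rests on 6 peaks. For ORR1 it also ranked below the LTRs in 3 lists and level in KO replicate 2. For MT it ranked above them in all lists (57.5, 62.8, 56.7 and 54.3 against 49.3, 60.1, 52.0 and 50.5). For MERVL and MT2 the internal share was 23.3%, 15.8%, 23.1% and 25.4%, larger than for MT in 3 of 4 lists.

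ERVL and MaLR peaks overlapped a peak of any annotation in another list more often than peaks at large did. Of those in WT replicate 2, 70.7% overlapped a peak of WT replicate 1 by at least 1 bp, against 57.4% of all peaks of that list, and 67.8% overlapped a peak of KO replicate 2, against 48.8%. Of those in KO replicate 1, 56.0% overlapped a peak of KO replicate 2, against 48.7%, and 30.6% overlapped a peak of WT replicate 1, against 27.4%. Of those in WT replicate 1, 58.4% overlapped a peak of KO replicate 2 and 21.9% a peak of WT replicate 2. A longer target list gives more overlap, so the shares follow list length as well as genotype. Counting only overlaps with another ERVL or MaLR peak gave lower shares, 44.6% of WT replicate 2 in WT replicate 1 and 33.3% of KO replicate 1 in KO replicate 2. Both lie below the shares of all peaks just given, for which any peak counts. By name, 53.2% of the 173 ORR1C2 peaks of WT replicate 2 overlapped a peak in each of the other 3 lists, as did 56.5% of its 124 ORR1C1 peaks and 65.5% of its 58 RMER15 peaks, against 44.8% of all ERVL and MaLR peaks in that list. For MTD it was 31.5% of 127. In KO replicate 2 the corresponding shares were 16.5% of 653 ORR1C2 peaks, 11.3% of 506 ORR1C1 peaks, 5.64% of 692 RMER15 peaks and 3.48% of 1436 MTD peaks, against 6.59% of all. Of the MERVL-int peaks 1 in WT replicate 1 overlapped a peak of every other list, and 0 of the 48 in KO replicate 2 did.

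Merged over the lists, the peaks formed 29959 regions. A list was counted as holding a region when any of its peaks, whatever the annotation, overlapped it. A single list held 51.2% of them, and all 4 lists held 1850 (6.18%), against 67.7% and 3.06% of the 249993 regions of all peaks. Among regions of a single subgroup, those of ORR1 were overlapped in all 4 lists most often (8.26% of 13530), followed by MT (4.52% of 8781), other ERVL (3.34% of 3054), MLT1 (2.91% of 2647) and MERVL and MT2 (2.49% of 1405). A further 542 regions joined peaks of different subgroups and are counted in none of them, so the subgroup shares leave them out. Of these, 22.5% were overlapped in all 4 lists and 0 were held by a single list. Regions with an ERVL or MaLR peak in each of the 4 lists were fewer, 427 in all (1.43%), with 1.93% of ORR1, 1.04% of MT, 0.688% of other ERVL, 0.142% of MERVL and MT2 and 0.113% of MLT1 regions. Of the 542 joined regions it was 9.04%. Both KO lists and no WT list held 5128 regions (17.1%, against 11.3% of all regions), and both WT lists and no KO list held 273 (0.911%, against 0.994%). The KO lists are the longer ones, so this asymmetry goes with length as well as genotype. Rank rose with recurrence: the median percentile was 33.5, 32.3, 40.1 and 40.7 in regions of 1 list and 90.7, 78.0, 93.0 and 90.6 in regions of all 4. The share in all 4 lists depends on the lists' depth: it was 13.3% with equal-length lists.

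**Figure D4:**
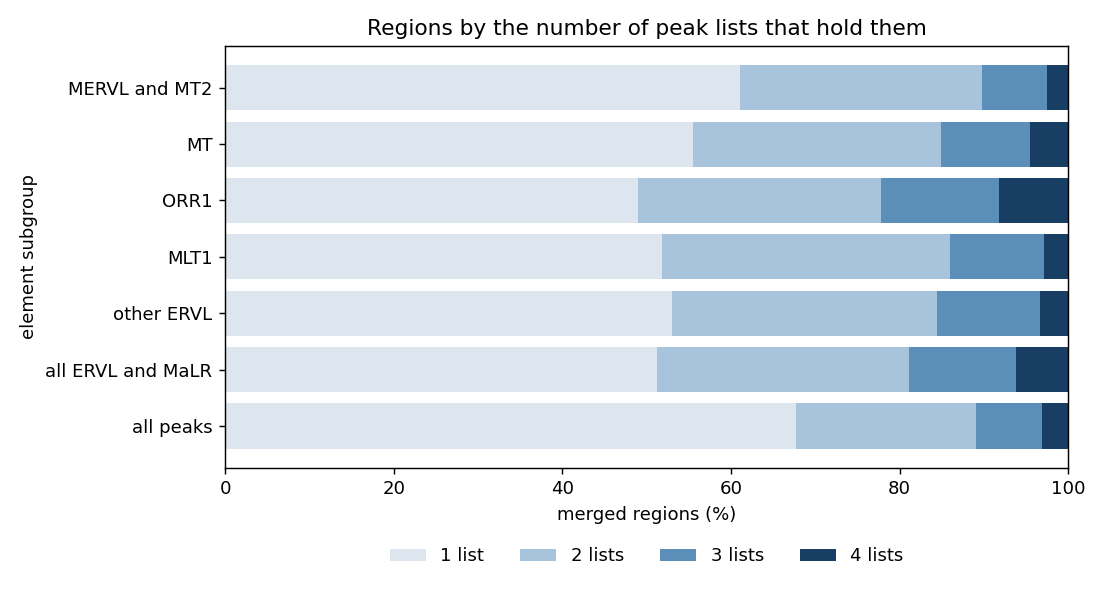
Merged regions (percent of each bar) by how many of the 4 peak lists have any peak over them, for the 5 subgroups, all ERVL and MaLR regions and all peaks. ORR1 has the largest part in all 4 lists (8.26%) and MERVL and MT2 the smallest of the subgroups (2.49%), and all peaks have the largest part in a single list (67.7%).

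Among regions overlapped by a peak in all 4 lists, the highest ranks were near the top of every list. Of the 15 such regions with the highest ranks, 3 in each subgroup, only the ORR1D1 and ORR1E region at chr12:25870843-25873725 had an ERVL or MaLR peak in each list, with percentiles from 99.7 to 99.9. In the others 1 to 3 lists had one, and the peaks of the remaining lists were centred on other sequence. Coordinates are mm9. An MT2B region at chr11:3093610-3100271, centred at -3474 bp from the start of Sfi1, a centrosomal protein gene, was an MT2B peak in 1 list, and the peaks overlapping it had percentiles above 99.8 in all lists. An MT2B region at chr9:72120245-72122514, at -1327 bp from Zfp280d, a zinc finger gene, was likewise an MT2B peak in 1 list, overlapped by peaks with percentiles from 99.0 to 99.5. The MT region with the highest ranks, MTD at chr16:98222457-98235077, lay at -44981 bp from Zbtb21, with peaks of 12620, 7393, 10449 and 14855 bp overlapping it. An ORR1E-int region at chr19:53539345-53542842 lay at -1756 bp from 5830416P10Rik, with an ORR1 peak in 2 lists and percentiles of 99.8 or more in every list. Of MLT1, an intronic MLT1G region at chr4:59278348-59283523 ranked highest, and of other ERVL an ERVL-E-int region at chr7:106906472-106910493, at -7192 bp from the olfactory receptor gene Olfr521 and with an ERVL peak in 3 lists. An MTEa region at chr5:44247207-44250651 lay at -11137 bp from Cd38, an ectoenzyme gene of activated lymphocytes, with percentiles of 99.7 or more, and an RMER15 region at chr10:53724303-53727900 lay in an intron of Man1a. Percentiles and widths of a region are those of the best peak that overlaps it, whatever its own annotation.

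The regions held by one genotype alone with the highest ranks were of mixed names. Among the KO regions given, both lists had an ERVL or MaLR peak at the Ugt1a1 region and 1 list at the other 4. Among the WT regions, both lists had one at 4, and 1 list at the Il2rb region. In both KO lists and neither WT list, RMER10B lay at 46003 bp from the start of Ipmk (percentiles 98.9 and 99.7). MTEa lay at -338695 bp from Tmpo (98.6 and 99.5). MLT1D lay in an intron of Grin2a (97.8 and 99.8) and MTE2b in an intron of Adam12 (98.6 and 98.8). ORR1E lay in an intron of Ugt1a1 (97.6 and 99.8). In both WT lists and neither KO list, ORR1C1 lay in an intron at -32102 bp from Mir6364 (97.9 and 92.8). ORR1D1 lay at 51805 bp from C130026L21Rik (97.1 and 92.0). RMER15-int lay in an intron at 28550 bp from Nrip1, the nearest gene (97.2 and 91.0). ORR1A0 lay at -5807 bp from Il2rb (95.5 and 91.5) and ORR1D2 at -115038 bp from Dleu2 (94.5 and 91.5). Il2rb encodes a receptor chain for interleukin 2 and interleukin 15 in T cells. A region absent from a list had no called peak there, which does not show that the mark was missing.

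A peak of this kind lay within 2 kb of the start of 7 genes in all 4 lists: Anapc4, Cd4, Hdac7, Mef2b, Qtrtd1, Vps54 and Zfp595. Upstream of Cd4, the co-receptor gene of helper T cells that the RNA groups were sorted on, an ORR1C2 element carried a peak at chr6:124838898-124839765. Its peaks were centred at -1208, -1288, -1162 and -1047 bp from the start, with percentiles of 74.1 and 20.3 in WT and 91.9 and 90.6 in KO. Both KO ranks were higher, but ranks from lists of different length do not show a change in the mark, and the region was singled out after its values were seen. At Vps54, a trafficking gene, an MTD peak lay between -1936 and -1768 bp with percentiles of 95.9, 97.8, 98.1 and 76.2. At Zfp595, a zinc finger gene, an ORR1A2 peak lay between -1379 and -1171 bp with percentiles of 89.7, 90.4, 95.4 and 94.4. At Hdac7, a class IIa histone deacetylase gene, an RMER15 peak lay between -1970 and -1819 bp with percentiles of 89.7, 60.1, 94.7 and 70.8.

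Within 10 kb of the start, 129 genes had such a peak in all 4 lists, 123 were in the RNA table and 94 passed the filter of a mean of 0.5 FPKM. In KO SP against WT SP, 0 of the 94 were called by limma at an adjusted p under 0.05 and 0 at an unadjusted p under 0.05, where 0.116% of the 11162 genes tested were called (8 higher, 0.0717%, and 5 lower, 0.0448%) and 384 had an unadjusted p under 0.05. With the replicate number as a block, 4 of the 94 were called, all lower (4.26%), against 3.1% of all genes. That block sets KO SP replicates 1 and 2 beside replicates 1 and 2 of the other groups, although their titles carry the numbers of KO DP replicates 3 and 4. The median log2 difference in the main fit was 0.05 for the near genes and 0.11 for all. Title numbers have 2 digits in replicates 1 and 2 of KO DP and WT SP and 3 digits in the other RNA libraries. Both KO SP libraries thus lie in the higher range, while WT SP spans both, and the labels do not say what the ranges mean. With a term for the range in the limma fit, 0 of the 94 were called and 6 had an unadjusted p under 0.05, against 693 of all genes. The medians were then 0.25 and 0.30. RNA differences are on the log2(FPKM + 1) scale, which understates the change of low genes. In these bulk libraries fewer cells of a type and less RNA per cell cannot be told apart.

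In KO DP against WT SP, 12 of the 94 were called, 3 higher and 9 lower (12.8%), against 7.89% of all genes tested (2.86% higher and 5.03% lower). The median log2 difference was -0.37 for the near genes and -0.38 for all, and it was -0.08 and -0.04 after median-ratio scaling, so changes are best read against a general shift. With the replicate number as a block 19 of the 94 were called (3 higher and 16 lower, 20.2%) against 12.9% of all genes. The libraries decide the count, for near genes and for all genes alike. It was 5 without KO DP replicate 3 (5.32%, against 3.53% of all genes) and 5 without WT SP replicate 1 (5.32% against 3.26%). It was 3 without WT SP replicate 3 (3.19% against 2.76%) and 4 without WT SP replicate 4 (4.26% against 3.12%). Without KO DP replicate 1 it was 19 (20.2% against 10.8%). The KO SP and KO DP comparisons share the WT SP libraries. Replicates 3 and 4, with the low FPKM sums, were the lowest KO DP libraries in each of the 9 genes given next, and the part of those sums in the results was not tested.

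The 3 higher genes were Cd4, Ctla4 and Cxcr5. Cd4 had 0.495, 0.466, 0.233 and 0.144 FPKM in the WT SP libraries, replicates 1 to 4, against 135.1, 177.9, 78.8 and 49.4 in KO DP. KO SP libraries held 0.192 and 0.222. The DP cells were sorted on CD4, so this difference restates the sort. Ctla4, an inhibitory receptor gene, had 0.961, 11.8, 0.513 and 0.523 in WT SP against 34.2, 45.9, 15.8 and 9.54 in KO DP, with 4.34 and 2.60 in KO SP. WT SP replicate 2 lay above KO DP replicate 4, so the groups overlapped. Its log2 difference was 3.08 ± 0.67 (SE, limma adjusted p = 0.0192), and the call was lost without KO DP replicate 3 or WT SP replicate 1, 3 or 4 (adjusted p up to 0.0774). Its peak, ORR1A3 or MTE2b by list, was centred between -7481 and -7040 bp with percentiles of 99.5, 98.5, 98.8 and 96.0. Cxcr5, the receptor of follicular helper cells, had 8.32, 6.57, 5.09 and 4.53 in WT SP against 29.3, 45.6, 17.8 and 11 in KO DP, with 12.0 and 14.3 in KO SP and no overlap of KO DP and WT SP. Its log2 difference was 1.77 ± 0.39 (adjusted p = 0.0196), which rose to 0.0755 without WT SP replicate 3 and 0.07 without replicate 4. Its ORR1C1 peak lay between -5395 and -5329 bp with percentiles of 95, 85.5, 97.5 and 77.4.

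**Figure D5:**
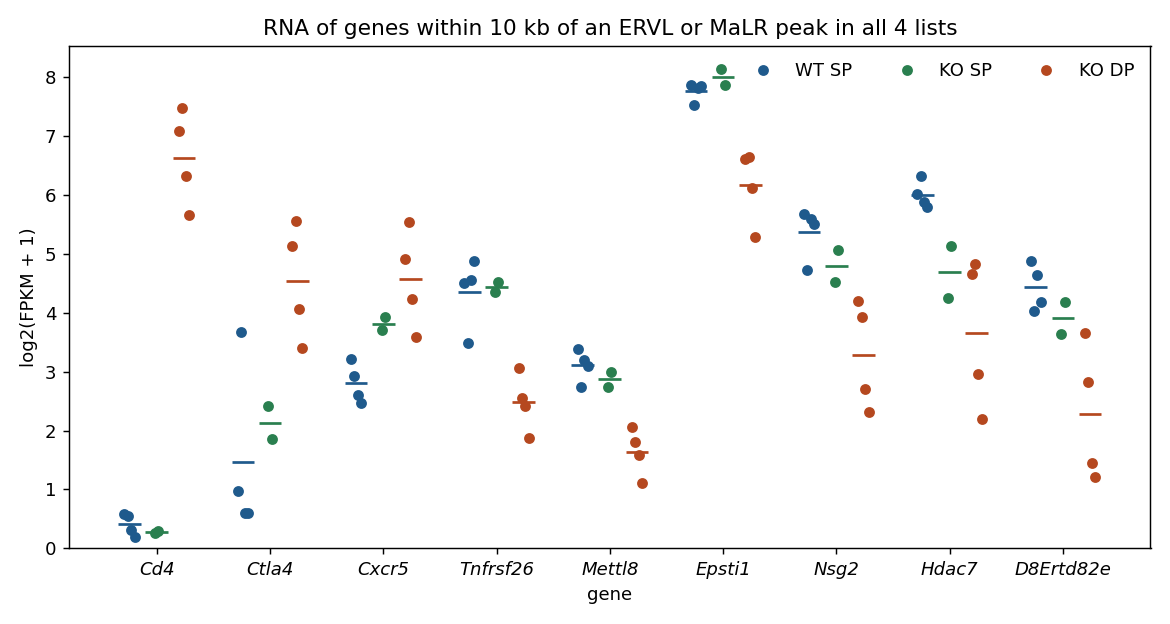
RNA level of 9 called genes near ERVL and MaLR peaks as log2(FPKM + 1) in each library (points) with the group mean (line), for WT SP (4), KO SP (2) and KO DP (4). Cd4, Ctla4 and Cxcr5 are higher in KO DP and the other 6 lower, and the KO SP points vary by gene, with both Cxcr5 points and 1 point each of Hdac7 and D8Ertd82e inside the KO DP range.

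Among the 6 lower genes given, Hdac7 had the largest change. It had 63.9, 78.9, 58.2 and 54.9 FPKM in WT SP against 24.2, 27.6, 6.78 and 3.60 in KO DP, with 18 and 34.1 in KO SP and no overlap of KO DP and WT SP. Its log2 difference was -2.35 ± 0.53 (adjusted p = 0.0218), lost without KO DP replicate 3 or WT SP replicate 1, 3 or 4 (up to 0.0842). Nsg2, which encodes a neuronal endosomal protein, had 17.3, 14.2, 5.53 and 3.98 in KO DP and 50.0, 25.5, 47.2 and 44.3 in WT SP, -2.09 ± 0.43 (adjusted p = 0.0138), lost without KO DP replicate 3 or WT SP replicate 1 or 3. An ORR1D1 peak lay 5844 to 6004 bp downstream of its start, with percentiles of 98.5, 98.6, 99.3 and 99.2. D8Ertd82e had 11.7, 6.05, 1.73 and 1.32 in KO DP and 28.4, 15.3, 24.0 and 17.3 in WT SP, -2.15 ± 0.49 (adjusted p = 0.0231), lost without any 1 of KO DP replicates 3 and 4 and WT SP replicates 1, 3 and 4.

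Tnfrsf26 and Mettl8 kept their calls in all 13 alternatives run for them. Tnfrsf26, a receptor gene of the tumour necrosis factor family, had 21.7, 10.2, 22.5 and 28.4 FPKM in WT SP against 7.34, 4.89, 4.32 and 2.68 in KO DP, with 19.5 and 22.1 in KO SP, -1.88 ± 0.35 (adjusted p = 0.00838). An MTB element carried its upstream peak, between -5814 and -5554 bp. Mettl8, a methyltransferase gene, had 9.49, 5.70, 8.17 and 7.54 in WT SP against 3.17, 2.49, 2.01 and 1.16 in KO DP, with 5.70 and 6.97 in KO SP, -1.47 ± 0.27 (adjusted p = 0.00838), with an ORR1B1 peak 9048 to 9202 bp downstream of the start. Neither gene overlapped between KO DP and WT SP. Epsti1, an interferon-inducible gene, had 96.8, 99.4, 68.8 and 37.9 in KO DP and 231.9, 183.1, 225.2 and 229.8 in WT SP, -1.60 ± 0.33 (adjusted p = 0.0136, and 0.0533 without WT SP replicate 3 and 0.0511 without replicate 4).

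Of 38 listed genes that accompany MERVL in the two-cell embryo, 30 were in the table and 4 passed the filter of a mean of 0.5 FPKM. Of the 4, Sp110, Eif1a and Zfp809 were expressed in every library (Eif1a from 9.31 to 37.8 and Zfp809 from 11 to 28.8 FPKM), and Dux was low. In KO SP against WT SP, limma called 0 of the 4, and 0 had an unadjusted p under 0.05. Dux, the transcription factor gene that activates MERVL in mouse embryos, had 0.0443, 0.123, 0.279 and 0.115 FPKM in the WT SP libraries against 0.0915 and 0.0641 in KO SP. It had 0.449, 0.339, 3.28 and 3.02 in KO DP, and the 2 high values belong to the libraries with the low FPKM sums and the most symbols above 0. Its log2 difference in KO DP was 1.08 (adjusted p = 0.093, 0.0299 with the replicate block). Zfp352, an LTR-driven early embryo gene, showed the same libraries high, with 0.0600, 0.0744, 0.592 and 1.23 in KO DP and at most 0.104 in the SP libraries. Zscan4a to Zscan4f, near-identical copies whose reads the counting could split, reached at most 0.51 FPKM, again in KO DP replicate 4. The part of these libraries' quality in the values was not tested. Sp110, a nuclear body gene, was lower in KO DP than in WT SP (92.2, 80.3, 64.5 and 49.0 against 133.2, 114.3, 171.3 and 179.1; -1.07, adjusted p = 0.04, and 0.0575 with the block).

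All 14 listed genes of the silencing machinery were tested and 0 were called in KO SP or KO DP against WT SP, with 0 and 3 at an unadjusted p under 0.05. Of all 11162 genes, limma called 0.116% and 7.89%, with 384 and 3050 genes at an unadjusted p under 0.05. In KO DP the count of called silencing genes was 1, higher, with the replicate block (7.14%, against 12.9% of all genes). It was 2 with median-ratio scaling (14.3% against 18%) and 3 with a term for the title number range (21.4% against 19%). Trim28, the corepressor that brings SETDB1 to LTR elements, had 32.2, 33.7, 23.9 and 26.7 FPKM in WT SP and 15.7 and 20 in KO SP. Setdb1 had 12.8, 13.5, 11.2 and 9.52 in WT SP and 8.21 and 8.55 in KO SP. Ehmt2, the deleted gene, had 18.1, 42.6, 27.0 and 21.6 in WT SP, 20.9, 23.6, 12.8 and 7.28 in KO DP and 12.6 and 13.6 in KO SP. It was lower than in every WT SP library in KO SP but overlapped WT SP in KO DP, and it was not called (adjusted p = 0.938 and 0.205). FPKM sums over the whole gene, so reads of exons outside the deletion, whose position the labels do not give, would still count.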

How the data were processed

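H3K9me3 ChIP-seq peak lists of 4 libraries and an RNA table of 10 libraries were used. Per the submitters' processing notes, Bowtie, HOMER, TopHat and Cufflinks were run on mm9; versions, peak threshold and use of input were not given in the sources used here. Nor was the handling of reads that map to several places, which bears on every repeat. Each deposited peak has a peak score, set by the authors' peak caller, whose scale differs between lists, so it was used only as a rank. Peaks were called per library. The authors' deposited RNA values are FPKM per symbol; depth cannot be had from them. The deposited region size equals end minus start, and HOMER annotates the peak centre only.

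Shares of peaks were compared by an exact two-sided permutation test. Shares per name (0.5 peaks added, mean of at least 20 peaks) and log2(FPKM + 1) (mean of at least 0.5) were fitted with limma 3.58.1 in R 4.3.3, Benjamini-Hochberg adjusted over all names or genes, threshold 0.05, and tested on simulated data. The RNA fit used all 3 groups. Regions were merged at an overlap of 1 bp. Other steps used Python 3.11.15 with pandas 2.3.3, numpy 2.4.6, scipy 1.17.1 and matplotlib 3.10.9. Names given are the 10 with the largest mean share plus MERVL-int, MT2_Mm, MT2B, MTA_Mm and ORR1A2. Names with a small adjusted p (MERVL_2A-int, MLT1A0) and MTA_Mm-int were added after their values were seen, as was the Cd4 region. Regions given are taken from the highest mean percentile ranks, and near genes are up to 6 called per direction by smallest p. Same-numbered RNA libraries of KO DP and WT SP deviated together over genes (r = 0.119, 0.293, 0.111 and 0.103), which passed the limit set for using the block. Libraries of different number did so too (0.243 for KO DP 4 with WT SP 3, 0.201 for KO DP 3 with WT SP 4, 0.147 for KO DP 2 with WT SP 1), so the correlations separate replicates 1 and 2 from 3 and 4 and do not single out pairs. ChIP numbers did not pair (r = -0.15). Alternatives were equal-length lists, score and repeat filters, other pseudocounts, filters, scaling, distances, a replicate block and leaving out each library. The members and lists were chosen with earlier results of these data known. Promoter sequences are from RefSeq (GRCm38.p6), in which both genes shown were matched by symbol.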

Additional observations from a re-analysis of the deposited data

Results flagged for a closer look

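In 4 of 42 groups of 4 libraries, over 21 genes, 1 library lay far from the other 3, where chance gives about 1 in 20. All 4 were WT SP. A group whose libraries split 2 against 2, as KO DP did for Dux, can hardly be flagged this way. The count thus does not compare the spread of the groups. Ctla4 was 11.8 FPKM in replicate 2 against 0.513 to 0.961 in the others. Epsti1 was 183.1 FPKM in replicate 2 against 225.2 to 231.9. Mef2b was 0.188 FPKM in replicate 4 against 0.416 to 0.458. Zfp352 was 0.0862 FPKM in replicate 3 and listed at 0 in the others, and such equal values make the flag certain.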

How the results depend on the processing

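The difference in the share of ERVL and MaLR peaks kept its direction in all 10 alternatives run. The ORR1 difference, -0.24 percentage points, turned to 0.32 with equal-length lists, 0.92 among repeat peaks, 0.50 without WT replicate 2 and 0.015 without KO replicate 1, and ranged from -0.98 to 0.50 when 1 library was left out. Regions in all 4 lists went from 6.18% to 5.52% when 50% of the shorter peak had to overlap and to 13.3% with equal-length lists, and the mean of the median widths from 598 to 1066 bp with equal-length lists. Names called went from 0 to 18 (2 higher in KO, 16 lower) with the replicate block and to 46 with the crossed block, and ranged from 0 to 158 when 1 library was left out (158 without WT replicate 1, 137 without WT replicate 2, 1 without KO replicate 1). Genes within 10 kb called in KO SP went from 0 to 4, all lower, with the replicate block (3.1% of all genes, 41 higher and 305 lower) and were 0 in the other alternatives for that distance. Within 50 kb there was 1 call with scaling (0.372%, against 0.179% of all genes) and 1 with the title number term (0.372% against 0.331%). In KO DP the 12 (12.8%, against 7.89% of all genes) went to 23 with scaling (24.5% against 18%) and 19 with the replicate block (20.2% against 12.9%). With a term for the range of the title number there were 25 (26.6% against 19%). Within 2 kb there were 3 of 6 (50%) and within 50 kb 33 of 269 (12.3%). When 1 library was left out the count ranged from 3 to 19 (3.19% to 20.2%, against 2.76% to 10.8% of all genes). Over all genes KO DP calls were 319 higher and 562 lower, 1027 and 984 with scaling, 536 and 899 with the block, and 641 and 1482 with the title number term. Two-cell genes in KO SP had 0 calls throughout. The causes were not tested. The fits without the X and Y chromosomes, with the crossed block and with the title number were chosen after seeing the data. With 2 libraries per genotype and no read counts behind the peaks, neither enrichment at single copies nor depth could be compared.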

Other observations

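Regions held by both KO lists and neither WT list made up 21.1% of MLT1 regions, 19.6% of other ERVL, 19.1% of MERVL and MT2, 17.0% of MT and 15.3% of ORR1 regions, against 11.3% of all regions. Regions held by both WT lists and neither KO list made up 1.19% of ORR1 regions and 0.285% of MERVL and MT2 regions, against 0.994% of all regions.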
